A study of Homo sapiens with 2 samples.

Results

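The genes described here are 37 interferon-induced genes, interferon transcription factors and sensors of foreign RNA or DNA, chosen by name from the 57351 gene symbols of 1 RNA-seq table. Expression was measured in 22Rv1, an established human prostate cancer cell line derived from a xenograft that relapsed after castration. One library came from cells expressing an shRNA vector control (shCON) and one from cells expressing a short hairpin RNA against EIF3F (shEIF3F), a subunit of the translation initiation factor eIF3. Both groups are the same line and no other treatment is named in the labels. Each group is 1 library, so the differences below have no replicate check and carry no error or p-value. With a single hairpin library, loss of EIF3F and any other action of that hairpin cannot be told apart.

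Interferons are secreted proteins that warn cells of infection. Type I interferon binds a receptor whose kinases, JAK1 and TYK2, act on transcription factors, and a complex that holds STAT2 and IRF9 then binds the interferon-stimulated response element in the promoters of its target genes. Interferon gamma uses its own receptor. The induced proteins block virus entry, degrade or mask viral RNA and tag proteins with ISG15, and many are also made at a low level without infection.

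Levels are in TPM, a unit that corrects for transcript length and library total, so different genes can be set side by side. The depth behind them is unknown. EIF3F, the targeted gene, was at 991 TPM in the control and 17.0 TPM with the hairpin (1.72% of control), the direction the labels give. The log2 ratio is log2((shEIF3F TPM + 1) / (shCON TPM + 1)). The added 1 shrinks the ratios of genes near 1 TPM. Genes whose log2 ratio reaches 1 are called 2-fold higher here, and those that reach -1 are called 2-fold lower. No significance attaches to that limit. In bulk RNA, fewer cells that express a gene and less RNA per cell cannot be told apart. Values given in pairs are shCON first and shEIF3F second. All 8 prostate luminal epithelial markers were measured, with sums of 891 and 1324.5 TPM, and the epithelial keratin KRT8 was at 301 and 347 TPM. Of 8 leukocyte markers 2 were measured, with sums of 7.56 and 6.62 TPM over the list. PTPRC was at 0.11 and 0.03 TPM and ITGAM was listed at 0 in both, while CD68 was at 1.2 and 5.34 TPM. Of 7 stromal and endothelial markers 3 were measured, with sums of 39.9 and 26.9 TPM. LUM was at 24.3 and 20.9 TPM, DCN at 12.9 and 4.86 TPM (log2 ratio -1.25, past 2-fold lower) and COL1A1 at 2.43 and 0.83 TPM, while VWF and CDH5 were listed at 0 in both. The part of these markers in the results below was not tested.

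All 37 genes were found in the table, and 23 of them averaged at least 1 TPM over the pair of libraries; these are called measured. Among these 23, 10 were at least 2-fold lower in shEIF3F, where 25.5% of all 13309 genes tested were, and 1 was at least 2-fold higher, where 8.45% of all genes were. The remaining 12 lay between the limits of the log2 ratio. In TPM without the added 1, PARP9 was at 2.14 times and IRF7 at 46.5% of the control level, past 2-fold. The median log2 ratio of the 23 was -0.73 beside -0.36 for all genes tested. The filter bears on these figures: IFITM1, IFI30, OAS3 and IRF1 were under 1 TPM in shEIF3F and passed through their shCON level alone, so they had to come out lower. Of the 19 members at 1 TPM or more in both libraries, 6 were at least 2-fold lower and 1 higher, beside 22.8% and 6.45% of such genes. After subtracting the median of all genes from each ratio (centring), 7 of 23 were lower (16.0% of all genes) and 2 higher (14.7%). With the libraries rescaled without the 100 most abundant genes, which moved the median of all genes by 0.38, 6 were lower (16.2%) and 2 higher (14.8%).

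**Figure D1:**
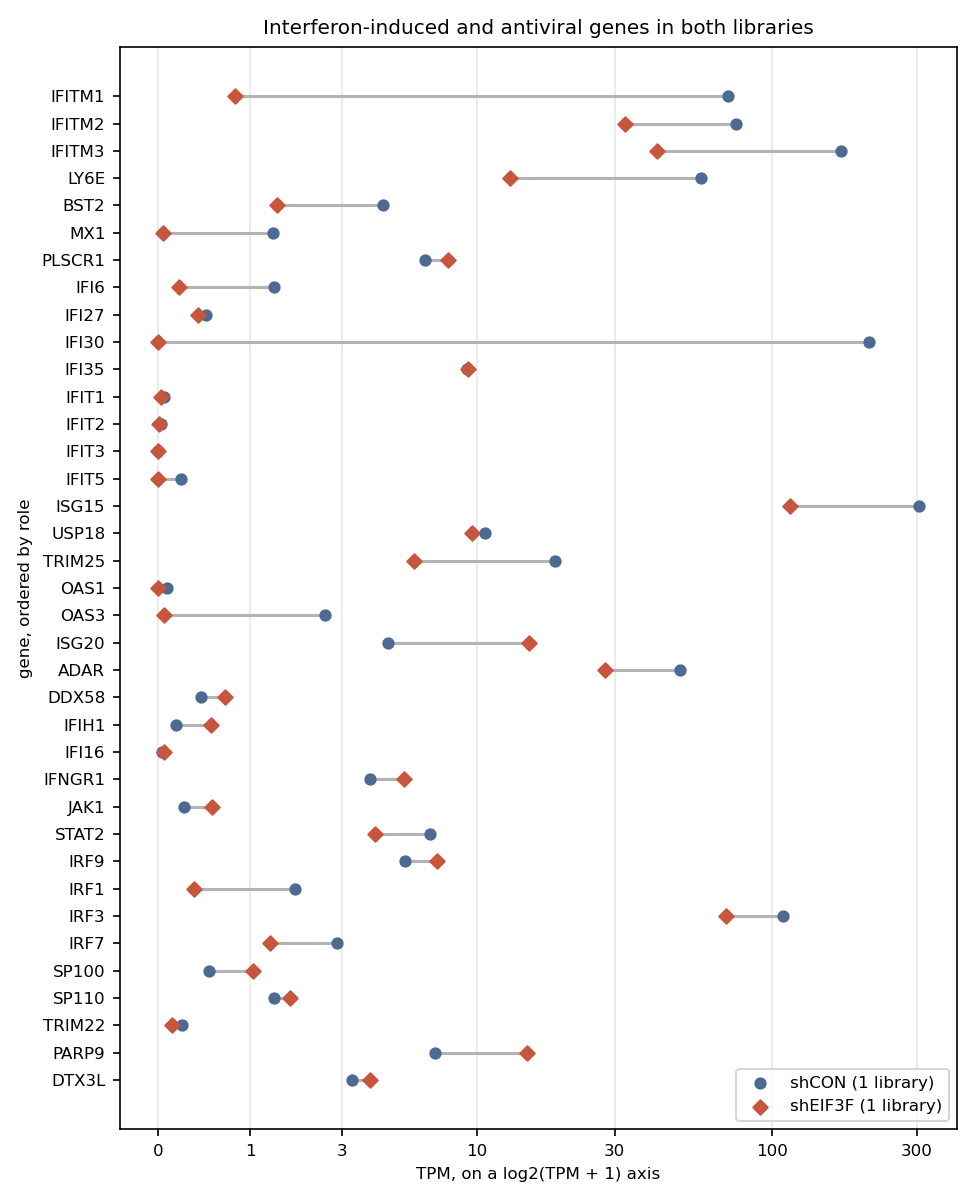
TPM of all 37 genes in the shCON library (circles) and the shEIF3F library (diamonds), on a log2(TPM + 1) axis, 1 library per group, ordered by role. IFITM1 spans 71.6 to 0.78 TPM and IFI30 spans 208 TPM to a listed 0, while the IFIT genes sit near 0 in both.

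Summed over the 37 genes, the level was 1139.6 TPM in shCON and 393 TPM in shEIF3F, and 932 and 393 TPM without IFI30, whose values are uncertain as described further on. Few genes made up most of it. ISG15, IFI30, IFITM3, IRF3, IFITM2 and IFITM1 together held 82.3% of the sum in shCON and 66.3% in shEIF3F. In shCON 10 members reached 10 TPM and 12 were under 1 TPM, against 8 and 17 in shEIF3F. The members were also split by their mean over both libraries, and that cut bears on the counts. IFITM1, IFI30, TRIM25 and USP18 were under 10 TPM in shEIF3F and reached that mean through shCON, so they had to come out lower. PARP9 was under 10 TPM in shCON and reached it through shEIF3F, so it had to come out higher. Of the 11 that averaged at least 10 TPM, 7 were at least 2-fold lower (29.9% of such genes) and 0 higher (7.50%), with a median log2 ratio of -1.39 beside -0.48 for genes of that abundance. Of the 12 with a mean between 1 and 10 TPM, 3 were lower (21.9%) and 1 higher (9.22%), with a median of 0.095 beside -0.27.

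The promoters of the members show what many of them share at the sequence level. Windows from 250 bases before to 50 bases after each start were taken from RefSeq (build GRCh38.p14) and matched 30 members by symbol, DDX58 under its newer name RIGI. IFITM2, LY6E, IFIT2, USP18, IRF3, IRF7 and TRIM22 had no entry. The core of the interferon-stimulated response element, GAAA followed by any 2 bases and GAAA again, was searched on both strands, so that TTTC, any 2 bases and TTTC also counted. Overlapping matches were kept. It occurred in at least one window of 16 of the 30 members (53.3%) and of 4.38% of the 27305 genes with a window. The members were chosen as interferon-induced genes, so this share describes the choice, and a match is neither a shown binding site nor a cause. TTCNNNGAA, the core of the gamma-activated site, reads the same on both strands and can overlap the first motif. It occurred in 10 of the 30 members (33.3%) and in 9.38% of all genes.

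The 150 bases before the start are shown 5′ to 3′ for 6 members that hold the response element and lay on different sides of the 2-fold limit, with IFI30, which holds none in its window, for contrast. Capitals mark matches to the element in either orientation.
IFITM1, chr11:313890-314039, + strand: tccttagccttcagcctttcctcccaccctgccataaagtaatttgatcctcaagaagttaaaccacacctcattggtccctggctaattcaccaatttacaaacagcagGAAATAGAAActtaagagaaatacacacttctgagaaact
IFITM3, chr11:320861-321010, - strand: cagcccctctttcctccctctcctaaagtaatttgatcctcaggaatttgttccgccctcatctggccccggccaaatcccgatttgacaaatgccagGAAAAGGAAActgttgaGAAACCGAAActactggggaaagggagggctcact
ISG15, chr1:1013347-1013496, + strand: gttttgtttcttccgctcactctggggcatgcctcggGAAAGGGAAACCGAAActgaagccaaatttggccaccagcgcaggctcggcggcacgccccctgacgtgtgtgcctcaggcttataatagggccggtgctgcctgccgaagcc
OAS3, chr12:112938324-112938473, + strand: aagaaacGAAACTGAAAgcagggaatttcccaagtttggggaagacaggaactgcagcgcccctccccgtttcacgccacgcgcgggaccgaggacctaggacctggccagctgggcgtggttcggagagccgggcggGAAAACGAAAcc
ISG20, chr15:88638866-88639015, + strand: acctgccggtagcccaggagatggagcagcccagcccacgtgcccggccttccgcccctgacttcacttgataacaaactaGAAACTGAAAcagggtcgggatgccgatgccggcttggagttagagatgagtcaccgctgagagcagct
PARP9, chr3:122564301-122564450, - strand: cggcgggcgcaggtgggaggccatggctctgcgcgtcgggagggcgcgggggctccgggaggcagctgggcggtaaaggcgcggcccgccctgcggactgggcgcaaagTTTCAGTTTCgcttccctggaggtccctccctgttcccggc
IFI30, chr19:18173663-18173812, + strand: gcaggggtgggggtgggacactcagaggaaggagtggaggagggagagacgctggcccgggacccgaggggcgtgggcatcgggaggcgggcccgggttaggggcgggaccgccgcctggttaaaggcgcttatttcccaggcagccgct
ISG15, IFITM3 and OAS3 each hold a pair of matches in the stretch, overlapping in ISG15. A further match in IFITM1 crosses its start and is left in lower case. The match in PARP9 lies at chr3:122564332-122564341, and the window of its divergent neighbour DTX3L holds the same bases on the opposite strand.

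Holding the element did not go with one direction. Of the 9 measured members that hold it, 5 were at least 2-fold lower (IFITM1, IFITM3, BST2, ISG15 and OAS3) and 1 was higher (ISG20). PLSCR1, PARP9 and DTX3L were within 2-fold on the log2(TPM + 1) scale. Their median log2 ratio was -1.16. Of the 9 measured members whose windows hold none, 3 were lower (IFI30, TRIM25 and IRF1) and 0 higher, with a median of -0.59. The filter bears on both counts and both medians. IFITM1 and OAS3 among the holders, and IFI30 and IRF1 among the others, were under 1 TPM in shEIF3F. They passed through their shCON level alone, so they had to come out lower. Among all genes tested 25.5% were lower and 8.45% higher. The 7 other members that hold the element were below a mean of 1 TPM. Across all 330 tested genes that hold it, 19.7% were at least 2-fold lower and 9.70% higher, with a median of -0.19.

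All 4 members grouped here as restriction factors of virus entry were at least 2-fold lower, beside 25.5% of all genes tested. IFITM1 was under 1 TPM in shEIF3F and passed the filter through shCON. The other 3 were at 1 TPM or more in both libraries, where 22.8% of genes were lower. The IFITM proteins sit in cell and endosomal membranes and block the fusion of enveloped viruses. IFITM1, mostly at the cell surface, was at 71.6 and 0.78 TPM (log2 ratio -5.35), 1.09% of control and position 14 from the lowest among the 13309 genes tested. IFITM3, mostly in endosomes, was at 169 and 41.6 TPM (-2.0), 24.6% of the control level. IFITM2, its close paralog, was at 76.2 and 32.5 TPM (-1.21), or -0.85 once centred on the median of all genes, short of 2-fold. The 3 neighbours thus lay between 1.09% and 42.6% of their control levels. The annotated spans of IFITM1 and IFITM2 overlap, and the transcripts of all 3 share sequence: 42.3% of the 50-base windows of the longest IFITM1 transcript also occur in a transcript of another gene, IFITM2 first, against 20.3% for IFITM3 and 15.8% for IFITM2. Reads can therefore be split between them. Summed, they stood at 317 and 74.9 TPM (-2.07). LY6E, a lipid-anchored surface protein that restricts coronavirus entry, shares no such window and was at 58.4 and 13.1 TPM (-2.08).

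**Figure D2:**
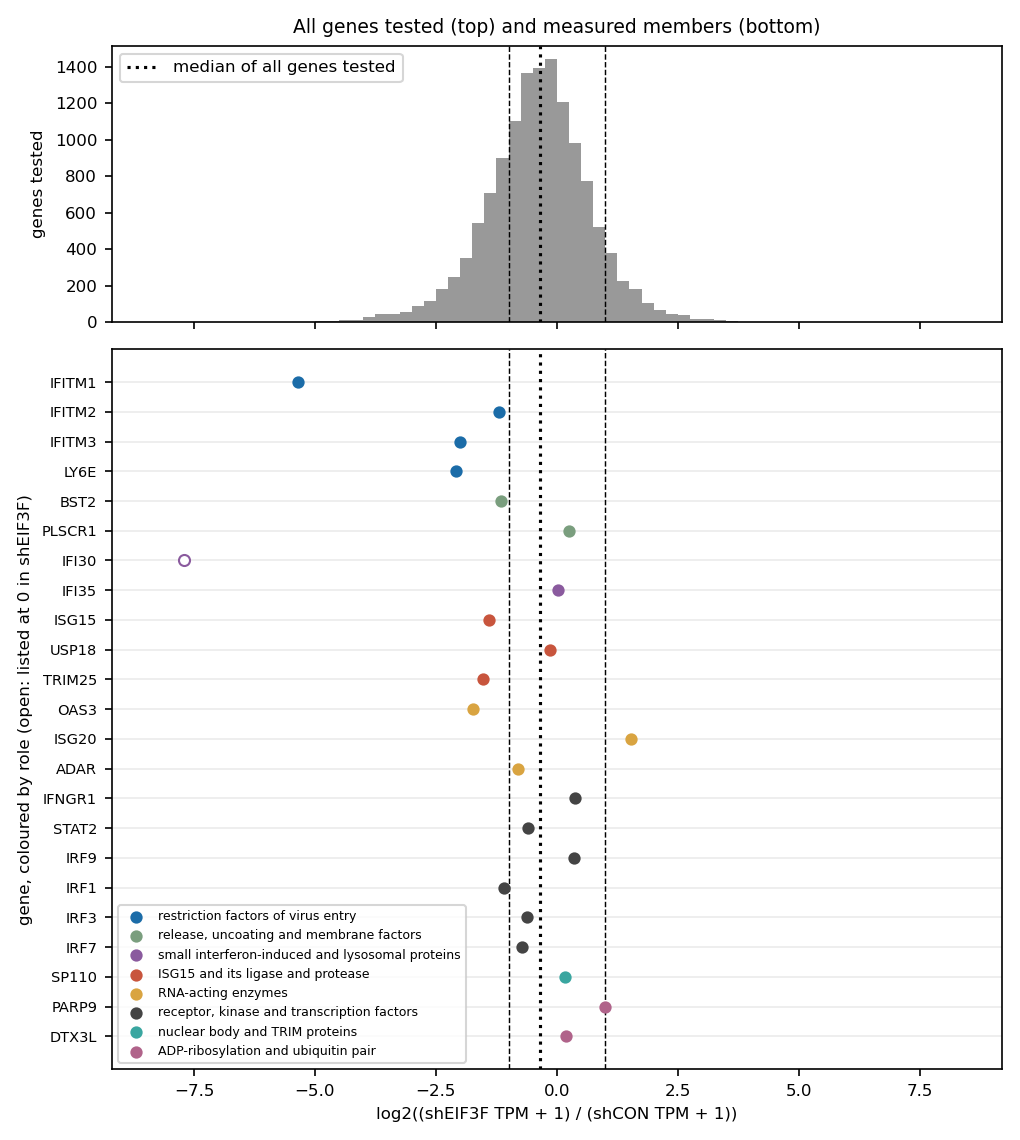
Top, log2 ratios of the 13309 genes tested in bins of 0.25. Bottom, log2 ratio of each of the 23 measured members, coloured by role, with dashed lines at -1 and 1 and a dotted line at the median of all genes (-0.36). The 4 entry factors lie left of -1, and ISG20 is the only member right of 1.

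Among other membrane-associated antiviral proteins, BST2, also called tetherin, which holds budding virions on the cell surface, was at 4.44 and 1.44 TPM (log2 ratio -1.16), or -0.80 after centring. PLSCR1, a phospholipid scramblase that restricts several viruses, was at 6.44 and 7.86 TPM (0.25). The dynamin-like GTPase MX1, which traps incoming nucleocapsids, was below the filter at 1.38 and 0.04 TPM.

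IFI30 encodes a lysosomal thiol reductase that unfolds antigens, and it had the second highest level of all members in shCON. It was listed at 208 TPM in the control and at 0 with the hairpin. The annotation (GENCODE release 29) holds an overlapping entry on the same strand, AC007192.1, in which 87.5% of the 50-base windows of the longest IFI30 transcript also occur. That entry was at 30.4 and 36.4 TPM. The sum of both entries was 238 and 36.4 TPM (log2 ratio -2.68), 15.3% of the control level. A listed 0 can be a failed estimate where entries overlap, so no fold is given for IFI30 alone. Without IFI30, 9 of 22 measured members were at least 2-fold lower, beside 25.5% of all genes tested, and the median log2 ratio was -0.67.

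The other small interferon-induced proteins were low or flat. IFI35, a leucine zipper protein that modulates RIG-I signalling, was at 9.2 and 9.3 TPM (log2 ratio 0.014). IFI6, a mitochondrial and endoplasmic reticulum protein, was below the filter at 1.4 and 0.17 TPM. IFI27, one of the most strongly interferon-induced genes in many tissues, was at 0.44 and 0.35 TPM. Its paralog IFI27L1 was more abundant, at 56.1 and 5.46 TPM (-3.14).

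ISG15 is a ubiquitin-like protein that is attached to other proteins or secreted. It had the highest level of the 37 genes in both libraries, at 304 and 115 TPM (log2 ratio -1.39), 37.9% of control. Its ratio was -1.04 after centring and -0.96 after the libraries were rescaled without the 100 most abundant genes. With the trend in GC content removed it was -0.48, and its longest transcript has 63.4% GC. TRIM25, a ubiquitin ligase that activates RIG-I and can also transfer ISG15, was at 18.8 and 5.85 TPM (-1.53).

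USP18, the protease that removes ISG15 and also dampens the type I receptor, was at 10.7 and 9.61 TPM (log2 ratio -0.14). Its close copy USP41 was at 26.8 and 0.9 TPM (-3.87), and 23.4% of the 50-base windows of USP18 occur in another gene, USP41 first. Summed, USP18 and USP41 were at 37.5 and 10.5 TPM (-1.74). The USP18 value taken alone and the sum therefore lay on different sides of the 2-fold limit, and how reads were divided is not given in the sources used here. Of the other ISG15 conjugation genes on the list, UBA7, UBE2L6, HERC5 and ARIH1, 2 were measured. UBE2L6 was at 2.2 and 0.82 TPM (-0.81) and ARIH1 at 1.98 and 4.36 TPM (0.85). Both were short of the limit on the log2(TPM + 1) scale, which 25.5% of all genes passed lower and 8.45% higher.

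**Figure D3:**
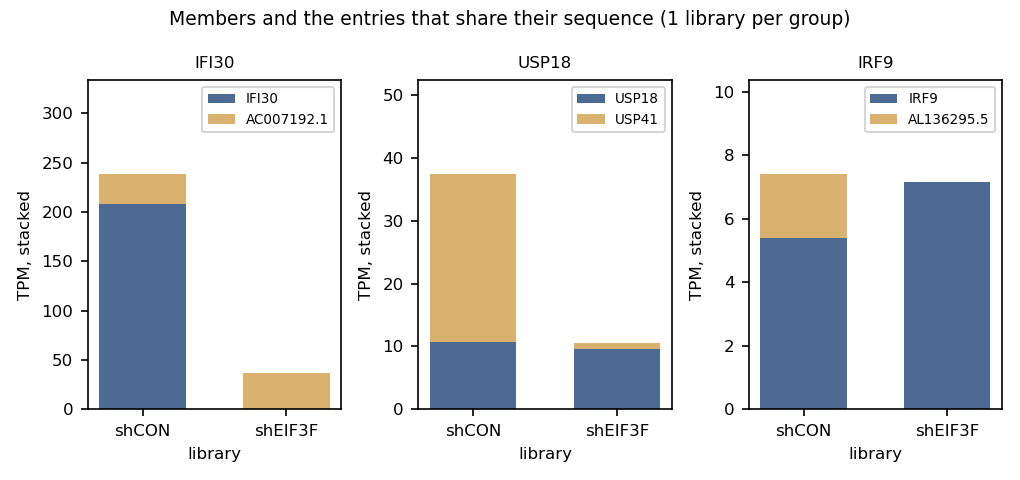
Stacked TPM of 3 members (blue) and of the entry that shares their sequence (yellow) in each library, on linear axes that start at 0. The IFI30 sum was 238 and 36.4 TPM, the USP18 sum 37.5 and 10.5 TPM, and the IRF9 sum 7.41 and 7.17 TPM.

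Enzymes that act on RNA went in both directions. OAS3, which makes the 2-5A second messenger on double-stranded RNA, was at 2.51 and 0.05 TPM (log2 ratio -1.74), and its relative OAS1 was at 0.07 TPM and listed at 0. ISG20, a 3′ to 5′ exonuclease that degrades single-stranded RNA, was the single measured member past the higher limit, at 4.65 and 15.3 TPM (1.53), 3.28 times the control level. It remained past 2-fold in each of 10 other settings, between 1.07 and 2.04, though those of filter and gene set left its ratio unchanged. ADAR, the adenosine deaminase that marks self RNA and keeps sensors quiet, was at 49.5 and 27.9 TPM (-0.80), the closest measured member above the lower limit.

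The nucleic acid sensors were under 1 TPM in both libraries. DDX58, which encodes the RNA sensor RIG-I, was at 0.38 and 0.65 TPM. IFIH1, which encodes the long double-stranded RNA sensor MDA5, was at 0.15 and 0.49 TPM, and the DNA sensor IFI16 at 0.03 and 0.05 TPM. Each of the 3 was higher in shEIF3F, at levels where 1 library per group gives no measure of error. The IFIT genes, whose proteins bind viral RNA lacking host cap marks, were also under 1 TPM in both libraries. IFIT1 was at 0.05 and 0.02 TPM, IFIT2 at 0.02 and 0.01 TPM, IFIT5 at 0.19 TPM and listed at 0, and IFIT3 listed at 0 in both.

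Of the 6 receptor, kinase and transcription factor genes measured, 5 were within 2-fold on the log2(TPM + 1) scale. The other, IRF1, was lower (25.5% of all genes), and 0 were higher (8.45%). IFNGR1, the ligand-binding chain of the interferon gamma receptor, was at 3.91 and 5.38 TPM (log2 ratio 0.38), and its partner chain IFNGR2, of the wider list, was at 27.7 and 64.0 TPM (1.18). IFNAR1, a chain of the type I receptor, was at 5.51 and 1.79 TPM (-1.22), or -0.86 after centring. The kinase JAK1, which both receptors need, was at 0.22 and 0.5 TPM, below the filter. TYK2, chosen after its values were seen, was at 59.3 and 58.5 TPM (-0.018).

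Of the transcription factors downstream of the receptors, STAT2 was at 6.73 and 4.12 TPM (log2 ratio -0.59). IRF9, its DNA-binding partner, was at 5.39 and 7.17 TPM (0.35). All 50-base windows of its longest transcript also occur in the overlapping entry AL136295.5, at 2.02 TPM and listed at 0, and the sum of both was 7.41 and 7.17 TPM (-0.042). STAT2, and IRF9 both alone and summed with that entry, were thus within 2-fold in these libraries.

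IRF3, which is present before infection and switches on interferon genes, was the most abundant regulator, at 109 and 70.6 TPM (log2 ratio -0.62). IRF7, which amplifies that response, was at 2.84 and 1.32 TPM (-0.73). That is 46.5% of control, short of the limit only through the added 1, and the ratio was -1.05 with a pseudocount of 0.1 TPM. IRF1, an early target of interferon gamma, was at 1.8 and 0.31 TPM (-1.10), close to the filter and just inside the lower limit. With the GC trend removed IRF3 was at 0.15 and IRF7 at 0.42, above 0. Over all 9 interferon regulatory factors, 7 were measured and IRF1 was the only one past the limit on the log2(TPM + 1) scale (25.5% of all genes were lower).

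The remaining members work in the nucleus or on ADP-ribose. PARP9 and DTX3L form a complex that modifies histones and supports interferon signalling, and they are transcribed from a shared start region. PARP9 was at 7.02 and 15.0 TPM, 2.14 times the control level, which on the log2(TPM + 1) scale was 0.997, just short of the limit. It was past 2-fold after centring (1.35), after rescaling (1.39) and with the GC trend removed (1.10). DTX3L was at 3.31 and 3.92 TPM (0.19). Exons of both genes overlap on opposite strands and the use of strand is not given in the sources used here, so reads from the overlap may count for either.

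SP110, a nuclear body protein, was at 1.39 and 1.7 TPM (log2 ratio 0.18), and SP100, a main component of PML bodies, was below the filter at 0.47 and 1.05 TPM. TRIM22, a ubiquitin ligase that restricts several viruses, was at 0.2 and 0.11 TPM. Of the 14 members below the filter, 5 had a higher and 8 a lower TPM in shEIF3F. Their sums were 5.0 and 3.44 TPM, and MX1 and IFI6 account for the highest shCON values among them. Counted with no filter, 12 of 36 members with a value above 0 were at least 2-fold lower (14.7% of all such genes) and 1 higher (5.11%).

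Transcript GC content moved with the ratios in these libraries. Among the 17 measured members over 50% GC, 10 were at least 2-fold lower, where 35.0% of all such genes were, and 1 was higher (5.74%). Their median log2 ratio was -1.16 beside -0.64 for all such genes. Among the 6 at or under 50% GC, 0 were lower (15.6%) and 0 higher (11.1%), with a median of 0.22 beside -0.11. Every member at least 2-fold lower thus had a transcript over 50% GC, between 51.1% and 64.2%. These include IFITM1, IFI30, OAS3 and IRF1, which passed the filter through shCON alone and so had to come out lower. The lower members had a median transcript length of 1077 bases beside 2051 for the 23 and 2868 for all genes tested. OAS3 (6719 bases), TRIM25 (5734) and IRF1 (3579) were longer than that last median. With the GC trend removed, 6 of 23 were at least 2-fold lower (14.0% of all genes) and 2 higher (13.3%). The 6 were IFITM1, IFITM3, LY6E, IFI30, TRIM25 and OAS3, of which IFITM1, IFI30 and OAS3 passed the filter through shCON alone. The part of GC content and length in each difference was not tested.

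**Figure D4:**
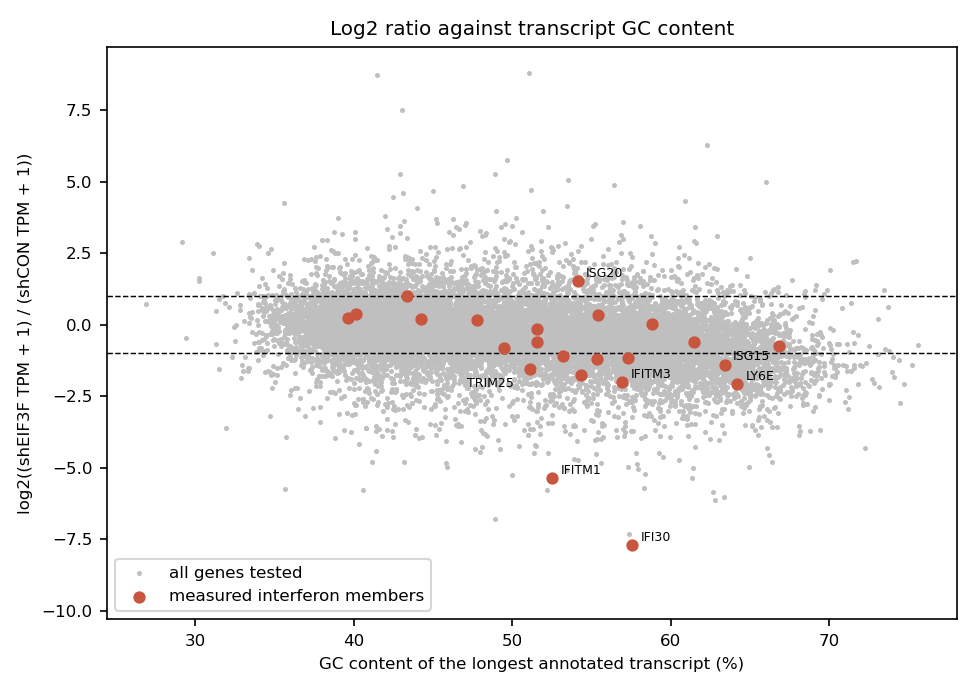
Log2 ratio against the GC content of the longest annotated transcript, for all genes tested with a GC value (grey) and the 23 measured members (red), with dashed lines at -1 and 1. The 6 members at or under 50% GC lie between the lines, and the 10 lower members lie above 50% GC.

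Scaling changed some calls. Of the 11 members past 2-fold as deposited, 6 stayed past it in each of 10 other settings of pseudocount, filter, scaling, GC correction and gene set: IFITM1, IFITM3, LY6E, IFI30, TRIM25 and ISG20. IFITM2, BST2, ISG15, OAS3 and IRF1 did not, and BST2, OAS3 and IRF1 could be tried in 9 of them. Filter and gene set settings left these ratios unchanged, so only those of pseudocount, scaling and GC correction could move a call. The share of all called genes that stayed past 2-fold in these settings is not given here, so 6 of 11 stands without one. IFITM1, IFITM3 and IFI30 share over 10% of their 50-base windows with other genes, which none of the 10 settings addressed. The IFI30 ratio also rests on a listed 0. IFITM1 ranged from -6.35 to -3.73 over these settings, IFITM3 from -2.02 to -1.55, TRIM25 from -1.67 to -1.13 and LY6E from -2.15 to -1.16.

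**Figure D5:**
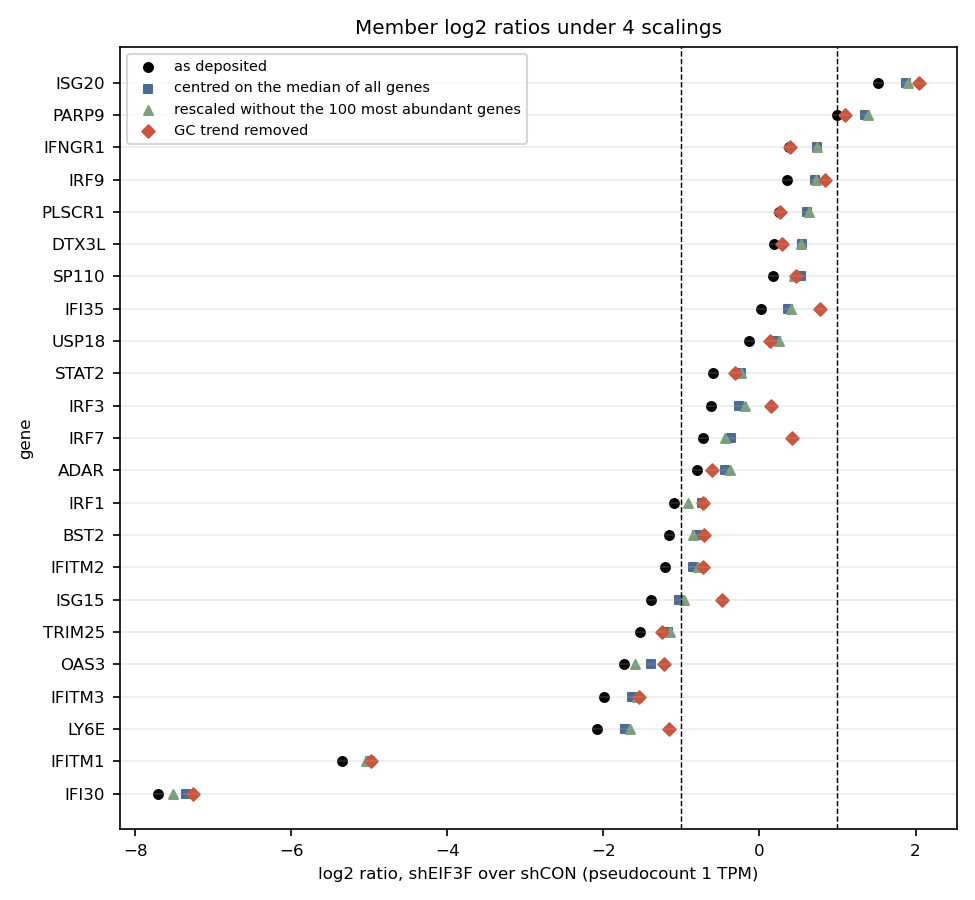
Log2 ratio of the 23 measured members as deposited (circles), centred on the median of all genes (squares), rescaled without the 100 most abundant genes (triangles) and with the GC trend removed (diamonds), with dashed lines at -1 and 1. ISG15 moves from -1.39 to -0.48 and crosses the line, while IFITM1 stays near -5.

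The wider pathway lists were mixed. Among 43 other interferon-induced effectors, 20 were measured, of which 6 were at least 2-fold lower (25.5% of all genes) and 1 higher (8.45%), with a median log2 ratio of -0.62 beside -0.36 for all genes. Of the 14 at 1 TPM or more in both libraries, 4 were lower (22.8%) and 0 higher (6.45%). PNPT1, a mitochondrial RNA exonuclease, was at 45.1 and 6.16 TPM (-2.69), and CMTR1, which adds a methyl mark next to the mRNA cap, at 24.8 and 4.39 TPM (-2.26). EIF2AK2, which encodes the double-stranded RNA kinase PKR, was at 4.31 and 0.81 TPM (-1.55), and C19orf66, an inhibitor of ribosomal frameshifting, at 5.06 and 1.27 TPM (-1.42). Of the 16 sensor and adaptor genes 7 were measured, each at 1 TPM or more in both libraries, and 3 were lower (22.8% of such genes), the member TRIM25 and the adaptors TICAM1, at 8.36 and 2.65 TPM (-1.36), and TRAF3, at 6.73 and 2.15 TPM (-1.30). Of the 16 receptor and signalling genes 12 were measured, 1 lower (IFNAR1) and 1 higher (IFNGR2), beside 25.5% and 8.45% of all genes. All 9 interferon genes on the list were at 0 in shCON, and IFNL3 was at 0.08 TPM in shEIF3F with the other 8 at 0.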

How the data were processed

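Total RNA was taken up in Trizol and sequenced from Illumina TruSeq RNA libraries, per the labels' protocols. The authors deposited gene-level TPM with 2 decimals. The submitters' processing notes name CASAVA, HISAT2 and hg19. Sources used here do not give the counter, annotation, strand use or filters. Columns were matched to groups by the sample descriptions.

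Entries of 1 symbol were summed, and 27 entries with date-like symbols and 5531 small RNA symbols were left out. Genes averaging at least 1 TPM were compared with a pseudocount of 1 TPM, which understates the ratio of low genes. GENCODE release 29 (GRCh38) gave gene types, transcript GC content and length, and the share of 50-base windows found in other genes; GC content was known for 97.9% of genes. For GC correction, ratios were centred within 20 bins. Gene lists and members were chosen with earlier results of these data known. The text names EIF3F, the members and, per wider list and direction, up to 4 genes past 2-fold by absolute log2 ratio, and direct paralogs. AC007192.1, AL136295.5, USP41, TYK2 and the other ISG15 conjugation genes were named after their values were seen. Python 3.11.15, NumPy 2.4.6, pandas 2.3.3 and matplotlib 3.10.9 were used, and the ratio calculation was tested on simulated data. TPM keeps no read number, so no interval or detection limit was computed. Some genes of the wider lists are not reported here.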

Additional observations from a re-analysis of the deposited data

How the results depend on the processing

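As deposited, 10 of the 23 measured genes passed the lower limit (25.5% of all genes) and 1 the higher (8.45%), and their median log2 ratio was -0.73. The lower count was 6 of 23 with libraries rescaled without the 100 most abundant genes (16.2% of all genes). With the GC trend removed it was 6 of 23 (14.0%), and after centring 7 of 23 (16.0%). Raising the filter to 5 TPM gave 7 of 16 (28.9%), and dropping it gave 12 of 36 (14.7%). The count was 6 of 17 without the members that share over 10% of their 50-base windows with another gene. That alternative was chosen after seeing the data. Under the remaining settings between 7 and 11 of 23 were lower. For these and for the 6 of 17 no share of all genes is given here. The higher count was 2 after centring (14.7% of all genes), after rescaling (14.8%), with the GC trend removed (13.3%) and with a pseudocount of 0.1 TPM, since PARP9 passed the limit. The median was -0.37 after centring, -0.38 after rescaling, -0.32 with the GC trend removed, -0.82 and -0.36 with pseudocounts of 0.1 and 5 TPM, -0.71 at a mean of 5 TPM or more, -0.13 with no filter (which adds members below 1 TPM on average) and -0.62 without the sharing members. The direction turned for USP18 after centring (0.22), rescaling (0.25) and GC removal (0.14), for IRF3 (0.15) and IRF7 (0.42) with GC removal, and for IRF9 when summed with the overlapping entry (-0.042), also chosen after seeing the data. Keeping small RNA genes, taking the most abundant entry per symbol or testing protein-coding genes alone changed no member's value. No paired analysis was possible because each group has 1 library, and no library could be left out. TPM keeps no depth, so genes near 1 TPM cannot be given an error.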

Other observations

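Genes that interferon gamma induces for antigen processing were at least 2-fold lower in 4 of the 7 measured, beside 25.5% of all genes tested, and 0 were at least 2-fold higher. PSMB9 was under 1 TPM in shEIF3F and passed the filter through its shCON level. Of the 6 at 1 TPM or more in both libraries 3 were lower, beside 22.8% of such genes. The proteasome activator subunits PSME2 and PSME1 were at 259 and 43.9 TPM (shCON, then shEIF3F; log2 ratio -2.53) and at 204 and 60.3 TPM (-1.74). The immunoproteasome subunits PSMB10 and PSMB9 were at 42.8 and 8.81 TPM (-2.16) and at 2.48 and 0.24 TPM (-1.49). After centring these 4 log2 ratios were -2.18, -1.38, -1.80 and -1.13.

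Of the 7 APOBEC3 cytidine deaminases, which mutate viral DNA, 4 were measured. Of these, 1 was at least 2-fold lower (25.5% of all genes), 1 higher (8.45%) and 2 were within the limits. APOBEC3B was at 29.4 and 1.15 TPM (log2 ratio -3.82) and APOBEC3H at 0.49 and 3.29 TPM (1.53). APOBEC3H was under 1 TPM in shCON and passed the filter through shEIF3F alone, so it had to come out higher. Of the 3 at 1 TPM or more in both libraries, 1 was lower (22.8% of such genes) and 0 higher (6.45%). The members of this family are close in sequence, so each value is uncertain. Of the paralogs of the interferon members, ADARB1, a second RNA-editing deaminase, was at 5.13 and 1.41 TPM (-1.35), or -0.99 after centring, and SP140L at 6.15 and 4.36 TPM (-0.42). MX2 was at 0.18 and 0.03 TPM, IFITM10 at 0.1 and 0.15 TPM, and OAS2 was listed at 0 in shCON and at 0.06 TPM in shEIF3F.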
